A study of Homo sapiens with 6 samples.

Results

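The cytosolic ribosomal proteins are the protein building blocks of the ribosome that works outside the mitochondria. The genes were chosen by symbol: RPL or RPS with digits and at most a suffix A or X, plus RPLP0, RPLP1, RPLP2 and RPSA. No measured value entered that rule. It found 77 of the 20461 genes in the deposited expression table, 46 for the large subunit and 31 for the small subunit. The RNA came from PANC1, an established human pancreatic ductal carcinoma line, kept in culture with no transgene and no host. Cells had received vehicle (0.1% DMSO, 2 RNA-seq libraries) or 50 nM gemcitabine (2 libraries) for 48 h. Gemcitabine is a deoxycytidine analog that is built into DNA and stops its synthesis. DNaseI-seq, which marks open chromatin, was available for 1 vehicle and 1 gemcitabine library. The study states that the RNA replicates were biological, and library numbers here only tell the libraries of a condition apart.

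Each ribosome holds 1 copy of nearly every one of these proteins around its ribosomal RNAs, and surplus protein that finds no place in a ribosome is quickly destroyed. Their mRNAs are among the most abundant of a growing cell. Most begin with a C followed by a run of pyrimidines, the 5′ terminal oligopyrimidine (TOP) tract, through which mTOR and LARP1 control their translation and stability. Changes in ribosome output under drugs therefore often occur in the translation of these mRNAs, which RNA-seq does not read. RNA-seq reads shares of a library, so that fewer cells and less RNA per cell cannot be told apart here.

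The TOP tract could be read from RefSeq (GRCh38.p14) for the 62 genes of the family that had a promoter window there, 250 bases before to 50 after an annotated start. In 46 of the 62 genes (74.2%) at least 1 annotated start had a C followed by 4 bases that were each C or T, against 5.14% of all 27305 genes with windows. The ETS core CCGGAAG, the motif that GABPA reads, lay on either strand in a window of 35.5% of the family's genes and 12.2% of all genes. For the SP1 core GGGCGG the shares were 58.1% and 48.3%, for the YY1 core AAGATGG 12.9% and 7.11%, and for the TATA box TATAAA 8.06% and 14.0%. The ETS and YY1 cores can share the letters AAG, and a match is a description of letters only. The starts of 10 genes described below are shown because they carry, or lack, the TOP tract at the annotated start. Each line runs from 10 bases before the annotated start to 20 bases from it, 5′ to 3′ on the gene's own strand, and capitals mark the unbroken run of C and T that opens the transcript.
RPS6, chr9:19380217-19380246, minus strand: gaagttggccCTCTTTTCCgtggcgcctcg
RPLP1, chr15:69452808-69452837, plus strand: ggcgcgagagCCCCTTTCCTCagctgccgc
RPL12, chr9:127451387-127451416, minus strand: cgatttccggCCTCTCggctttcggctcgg
RPS24, chr10:78033853-78033882, plus strand: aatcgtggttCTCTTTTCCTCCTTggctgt
RPL38, chr17:74203668-74203697, plus strand: aagtctcgttCTTTTTCgtccttttccccg
RPL26, chr17:8383174-8383203, minus strand: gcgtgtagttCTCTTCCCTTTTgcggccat
RPS18, chr6:33272065-33272094, plus strand: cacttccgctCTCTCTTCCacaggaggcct
RPL41, chr12:56116623-56116652, plus strand: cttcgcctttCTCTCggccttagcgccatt
RPL4, chr15:66504836-66504865, minus strand: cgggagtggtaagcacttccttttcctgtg
RPL10A, chr6:35468391-35468420, plus strand: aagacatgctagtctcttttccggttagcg
The first 8 open with the tract. RPL4 and RPL10A do not open with it at the annotated base, and in both a pyrimidine stretch follows a few bases later, at a distance that depends on where the annotation puts the start.

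The libraries held 13194533 to 15766237 fragments, and 3 fragments in a library correspond to 0.190 to 0.227 CPM (fragments of a gene per 1000000 fragments of its library). Along the first principal component (68.4% of the variance) the conditions separated, and along the second (17.8%) the 2 gemcitabine libraries separated from each other. Of the markers, KRT7, KRT8, KRT18 and VIM lay at 336 to 1658 FPKM, KRT19 at 3.06 to 6.91 FPKM, and the acinar and endocrine markers at 0 to 0.0542 FPKM. FPKM is a fragment level per length of transcript, scaled to the size of the library, and allows genes to be set beside each other.

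The mRNAs of the family took up 3.96% and 3.80% of all fragments in the vehicle libraries and 4.08% and 3.78% in the gemcitabine libraries. The gemcitabine values enclosed the vehicle values, so the share of the library spent on the family did not separate the conditions. Per length, the family made up 12.3% and 12.1% of the summed FPKM in vehicle and 12.4% and 11.9% in gemcitabine. The family filled 43 of the 100 places at the top of the FPKM ranking. The ratio of large-subunit to small-subunit fragments was 1.71 and 1.73 in vehicle and 1.64 and 1.69 in gemcitabine, lower in both treated libraries, which lay farther from each other than the nearer of them lay from vehicle.

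Although every ribosome needs nearly equal numbers of these proteins, the levels of the mRNAs differed by a factor of 22.2 on the FPKM scale. The median mean FPKM was 1166 and the middle of the ranking, from the first to the third quartile, ran from 701.3 to 1551. RPS3, a protein at the mRNA entry channel of the small subunit, stood highest with 5152 and 4819 FPKM in vehicle and 4990 and 4971 FPKM in gemcitabine. RPL37 followed with 3805 and 3822 FPKM in vehicle and 4131 and 3557 FPKM in gemcitabine. RPLP1, a protein of the flexible stalk that recruits translation factors, had 3332 and 3046 FPKM in vehicle and 3345 and 3458 FPKM in gemcitabine. These 3, with RPL35, RPL37A and RPS6, formed the 6 highest. At the other end lay RPL22 (217 to 231 FPKM over the 4 libraries), RPS26 (229 to 259), RPL7 (312 to 346), RPS3A (405 to 484), RPS15 (419 to 493) and RPL17 (471 to 487). Levels of neighbours in this order overlapped between libraries in all but 5 of 75 neighbouring pairs, and the order in vehicle and gemcitabine was nearly the same (Spearman's rho = 0.993 over 77 genes, a description, since the genes share the libraries).

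**Figure D1:**
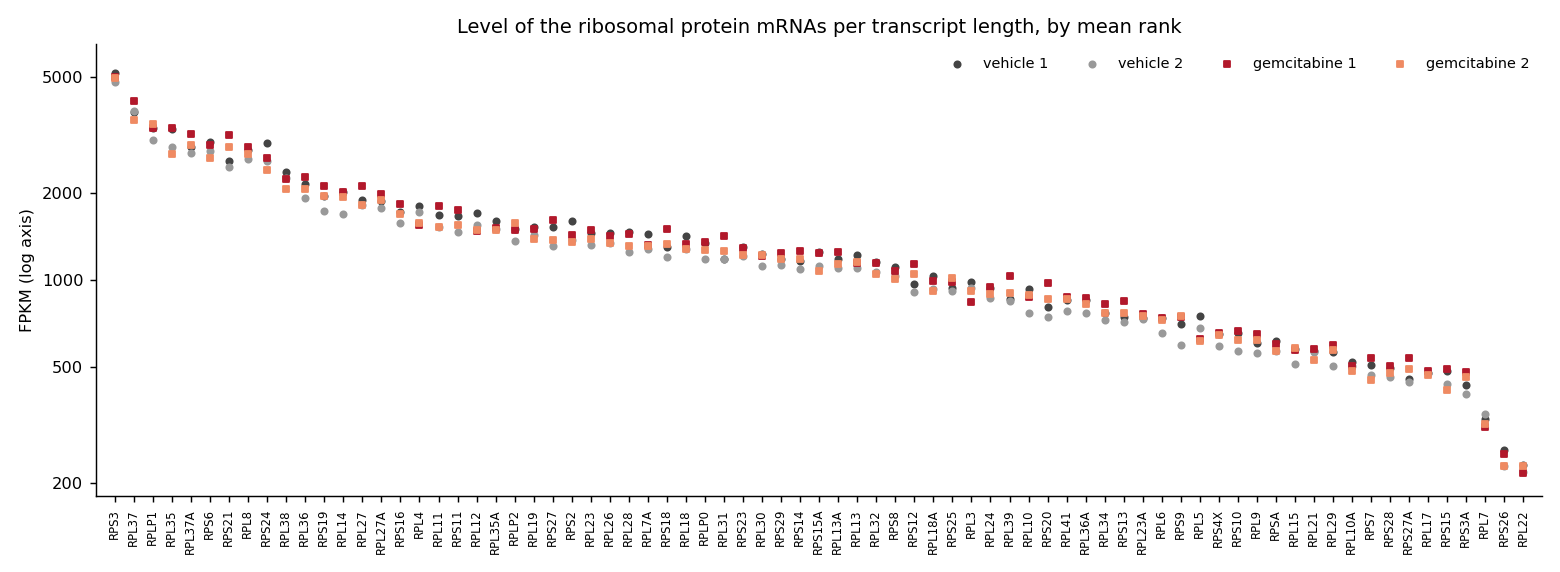
FPKM (log axis) of 75 of the 76 ribosomal protein mRNAs with fragments in each of the 4 libraries, ordered by the mean over the libraries. Circles are vehicle and squares gemcitabine libraries. RPS3 stands at the top, RPL22 at the bottom, and the conditions overlap along most of the order.

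These levels depend on how fragments were assigned. The length implied by the fragments, the FPKM and the library total, averaged over the libraries, was shorter than the coding length for 59 of the 76 genes. This implied length need not equal the one that Cuffdiff used, since it differed between libraries (868 to 910 bases for RPL5). For RPS3 it was 218 bases against a coding length of 729, whereas for RPS6, which had the most fragments of the family (33502, 33418, 29194 and 26356), it was 754 against 747. RPS3 is therefore above RPS6 in FPKM with fewer fragments (16386, 16613, 14916 and 14203). Ribosomal protein genes are also the classic source of processed pseudogenes. The coding sequences of 61 genes had at least 1 further match of 95% identity over 90% of their length in the hg19 genome, 240 matches in all, with a median of 2 per gene and 31 for RPL21. Short coding sequences such as that of RPL41 (75 bases) can escape such a search. Genes with more copies had lower FPKM (Spearman's rho = -0.47 over 76 genes, a description), among them RPS26 with 20 copies. Copies that share reads make the levels of these genes uncertain, and the part of the copies in the order of levels was not tested. In 14 genes, RPL17, RPL26, RPL32, RPLP2, RPS15 and RPS18 among those named here, the fragments were not whole in every library, and 9 genes overlap exons of another gene in the table, among them RPL35 and RPL17.

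The main comparison asked how gemcitabine changed these mRNAs, and it covers the 76 genes with fragments. The family moved very little. With the quasi-likelihood test of edgeR on fragments after TMM scaling, 9 of the 76 genes fell (11.8%) and 0 rose at a Benjamini-Hochberg adjusted p under 0.05, whereas among all 14854 genes tested 20.0% fell and 18.5% rose. At an unadjusted p under 0.05, 21 genes of the family were lower (27.6%, against 24.1% of all genes) and 1 higher (against 23.1%); with DESeq2, 11 fell and 0 rose. None of the 76 met the study's full criteria, which add a fold change over 1.5 (also 0 with DESeq2), against 4.42% of all genes in the lower and 5.69% in the higher direction. Fold changes ran from -0.32 for RPL5 to 0.15 for RPS21 on the log2 scale, 0.803-fold to 1.11-fold.

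**Figure D2:**
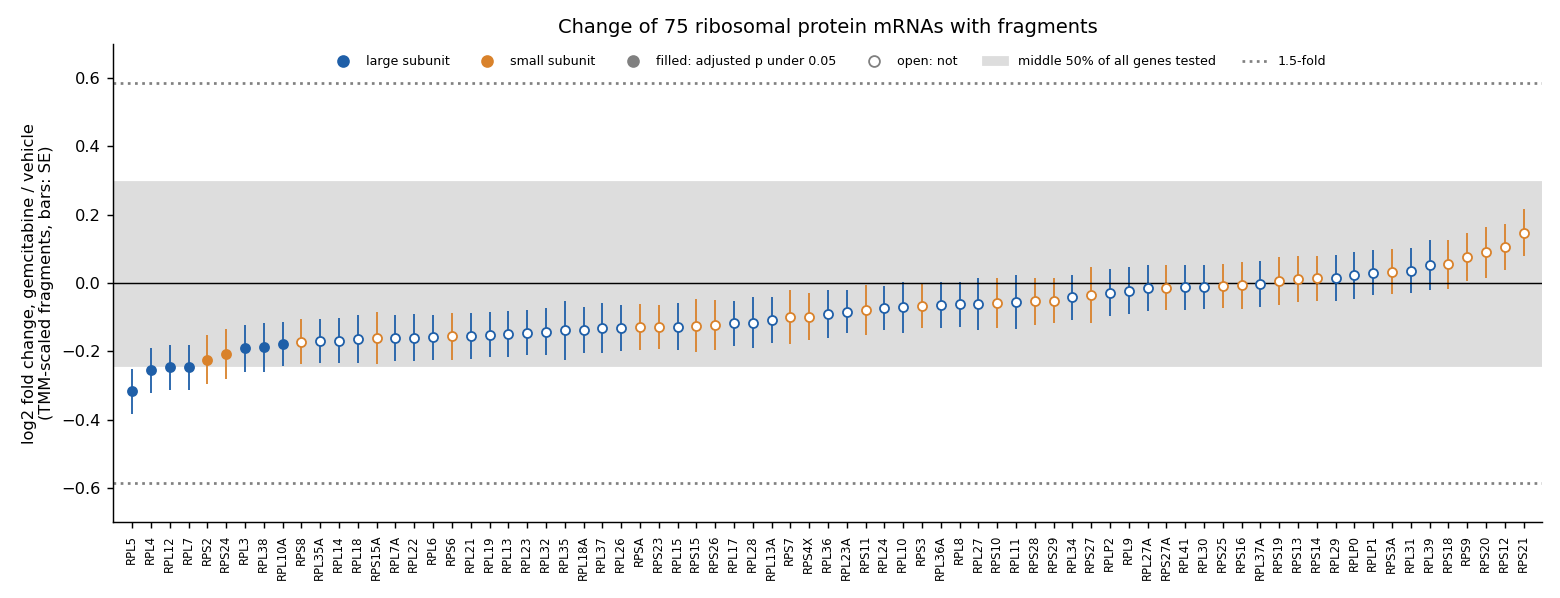
Log2 fold change (gemcitabine over vehicle, edgeR, TMM-scaled fragments) of 75 of the 76 ribosomal protein mRNAs in order of size, with standard errors from 2 against 2 libraries. Filled points have an adjusted p under 0.05, the grey band holds the middle 50% of all 14854 genes tested, and dotted lines mark 1.5-fold; every plotted gene lies inside the dotted lines.

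The 95% confidence interval of the fold change lay inside a 1.5-fold change in either direction for all 76 genes, with outer bounds of -0.46 and 0.29 on the log2 scale. This held for 53.8% of all genes tested. The family's counts are among the highest, which narrows its intervals. It also held for all 76 genes under each of the other edgeR settings, where the outermost bounds were -0.58 without vehicle library 2 and 0.42 without vehicle library 1. For these mRNAs a change as large as the study's fold criterion was thus outside the interval in each of these fits.

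The median log2 fold change of the 76 genes was -0.09, beside 0.01 over all genes tested. In the family 61 genes were below 0 (80.3%, beside 49.3% of all genes tested) and 15 above. The family's median turned to 0.02 when libraries were scaled by their totals alone, where that of all genes moved to 0.12. Relative to the median of all genes the family lay at -0.09 under both scalings. On FPKM the family's median was 0.055 in each of 3 fits. Relative to the median of all genes it lay at 0.014 on log2(FPKM + 1) and at -0.034 on log2(FPKM + 0.1). On log2(FPKM + 1) with genes filtered at a mean of 0.1 FPKM it lay at -0.050. The gap between libraries of the same condition was about as large as the family's median after TMM scaling. The family's genes were higher in vehicle library 1 than in vehicle library 2 in 67 of 76 cases, by a median of 0.07, and higher in gemcitabine library 1 than in gemcitabine library 2 in 64 of 76 cases, by a median of 0.08. Both gemcitabine libraries were below both vehicle libraries for 36 of the 76 genes (47.4%) and above them for 3 (3.95%), against 34.7% and 35.0% of all genes. With library totals these counts became 9 (11.8%) and 22 (28.9%), against 24.5% and 46.2% of all genes.

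Among the proteins of the large subunit, 7 of 46 mRNAs fell (15.2%), 41 were below 0 (89.1%) and the median was -0.12. Among those of the small subunit, 2 of 30 fell (6.67%), 20 were below 0 (66.7%) and the median was -0.05. Of all genes tested 20.0% fell and 49.3% were below 0. Both medians are descriptions, with no test between the subunits.

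RPL5 fell the most. The protein binds 5S ribosomal RNA and, together with RPL11, carries it into the large subunit; the same complex holds MDM2, a ubiquitin ligase, when assembly is disturbed. In hg19 the gene lies on chromosome 1 at 93297570 to 93307481. RPL5 had 678 and 642 CPM after TMM scaling in the vehicle libraries and 535 and 525 CPM in the gemcitabine libraries. The gemcitabine values lay below both vehicle values by more than either pair was apart. The log2 fold change was -0.32 (SE 0.07, edgeR adjusted p = 0.00164). Leaving out vehicle library 1 ended the call (log2 fold change -0.27, adjusted p = 0.0986), and on log2(FPKM + 1) it was -0.20 (limma adjusted p = 0.199). Over all 13 alternatives its adjusted p ran from 7.29e-08 to 0.274.

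RPL11, its partner, did not pass the edgeR test. It had 798 and 751 CPM in vehicle and 804 and 687 CPM in gemcitabine. The gemcitabine libraries enclosed the vehicle libraries, and the log2 fold change was -0.06 (SE 0.08, 95% interval -0.22 to 0.11, edgeR adjusted p = 0.616). It ran from -0.17 without gemcitabine library 1 to 0.06 without gemcitabine library 2. The interval overlaps that of RPL5 (-0.46 to -0.18), and no test was run between these genes. Within a library the ratio of RPL5 to RPL11 fragments needs no scaling. It was 0.849 and 0.855 in vehicle and 0.665 and 0.765 in gemcitabine. Both treated libraries had fewer RPL5 fragments per RPL11 fragment, and they lay farther from each other than gemcitabine library 2 lay from vehicle. RPL26, a protein near the exit tunnel of the large subunit, had 524 and 503 CPM in vehicle and 483 and 456 CPM in gemcitabine, with a log2 fold change of -0.13 (SE 0.07, edgeR adjusted p = 0.136). MDM2 itself did not pass the test (log2 fold change -0.02, 95% interval -0.18 to 0.15).

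Of the other 8 genes that fell, 6 encode proteins of the large subunit. RPL4, a core protein whose loop lines the exit tunnel, had 1239 and 1218 CPM in vehicle and 1003 and 1057 CPM in gemcitabine. Its log2 fold change was -0.25 (SE 0.07, edgeR adjusted p = 0.00692). RPL12, a protein at the base of the stalk, had 815 and 772 CPM in vehicle and 667 and 671 CPM in gemcitabine. The treated libraries nearly coincided and lay under both controls, with a log2 fold change of -0.25 (SE 0.07, edgeR adjusted p = 0.00842). RPL7, an RNA-binding protein of the large subunit, had 254 and 252 CPM in vehicle and 207 and 220 CPM in gemcitabine (log2 fold change -0.25, edgeR adjusted p = 0.00845).

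RPS2, a protein of the mRNA channel, had 804 and 715 CPM in vehicle and 649 and 652 CPM in gemcitabine. Here the vehicle libraries were farther apart than vehicle library 2 was from the treated ones, and the log2 fold change was -0.22 (SE 0.07, edgeR adjusted p = 0.0228). RPS24, a small-subunit protein mutated in some patients with Diamond-Blackfan anemia, had 697 and 633 CPM in vehicle and 599 and 553 CPM in gemcitabine (log2 fold change -0.21, edgeR adjusted p = 0.0344). RPL3, the protein next to the catalytic center, had 1127 and 1096 CPM in vehicle and 927 and 1021 CPM in gemcitabine (log2 fold change -0.19, edgeR adjusted p = 0.0423). The values did not overlap in either gene, and gemcitabine library 2 stood closest to the controls for RPL3.

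RPL38, known for its role in the translation of Hox mRNAs, had 331 and 319 CPM in vehicle and 301 and 269 CPM in gemcitabine (log2 fold change -0.19, edgeR adjusted p = 0.0492). RPL10A, the protein of the mobile L1 stalk beside the exit site of the ribosome, had 305 and 305 CPM in vehicle and 276 and 263 CPM in gemcitabine (log2 fold change -0.18, edgeR adjusted p = 0.0419). Both are near the threshold, and DESeq2 no longer called RPL38 (adjusted p = 0.0542, with a range of 3.26e-05 to 0.571 over the alternatives). The direction of all 9 genes was downward in all 13 alternative fits, 117 of 117 values, but library totals left only RPL5 past the threshold. Leaving out a library changed the number of falls strongly: 0 genes of the family fell without vehicle library 1, 1 without vehicle library 2 (RPL5), 37 without gemcitabine library 1 and 16 without gemcitabine library 2. The counts of 37 and 16 each include 8 of the 9; RPL3 lost the call without gemcitabine library 1 (edgeR adjusted p = 0.0650, with a range of 2.04e-05 to 0.454 over the alternatives) and RPL38 without gemcitabine library 2 (adjusted p = 0.123).

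**Figure D3:**
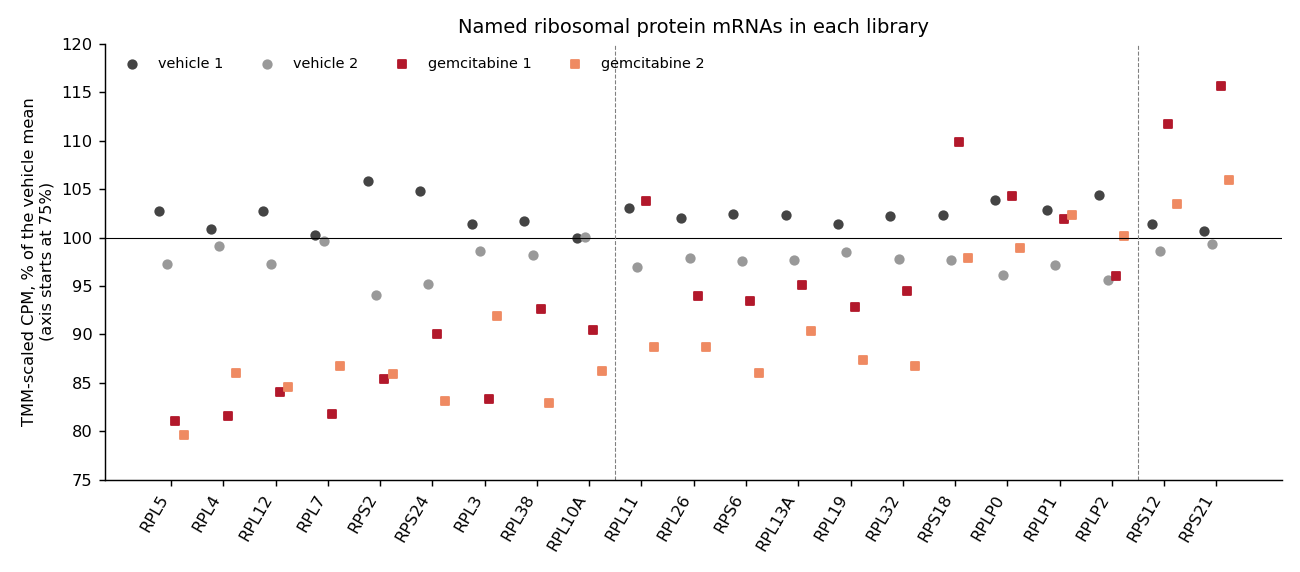
TMM-scaled CPM of named ribosomal protein mRNAs in each library, as a percent of the mean of the 2 vehicle libraries (the axis starts at 75%). Left of the first dashed line are the 9 genes that fell, in the middle RPL11, RPL26, reference and stalk genes and RPS6, and right of the second line RPS12 and RPS21, whose treated libraries were both above the controls.

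No mRNA of the family rose. RPS21 and RPS12, both of the small subunit, had both treated libraries above both controls and were singled out after their values were seen. RPS21 had 409 and 403 CPM in vehicle and 469 and 430 CPM in gemcitabine (log2 fold change 0.15, SE 0.07, edgeR adjusted p = 0.102). RPS12 had 462 and 449 CPM in vehicle and 509 and 471 CPM in gemcitabine (log2 fold change 0.11, edgeR adjusted p = 0.238). In both genes gemcitabine library 1 was the highest. With library totals 5 of the 76 genes rose, among them RPS12, RPS21, RPS9 and RPS20, beside 27.4% of all genes, and 1 fell, beside 13.3%. Without gemcitabine library 2, 6 genes rose, among them RPL39, RPS12, RPS18, RPS20 and RPS21.

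The stalk proteins stayed within the spread of the libraries. RPLP0, the anchor of the stalk, had 753 and 697 CPM in vehicle and 756 and 717 CPM in gemcitabine, with a log2 fold change of 0.02 (95% interval -0.12 to 0.17). RPLP1 and RPLP2, the acidic proteins bound to it, had log2 fold changes of 0.03 (95% interval -0.11 to 0.17) and -0.03 (95% interval -0.18 to 0.12). Ribosomal protein mRNAs often serve as reference genes in quantitative PCR. Of the common ones, RPS18 had a log2 fold change of 0.05 (95% interval -0.10 to 0.21), RPL13A -0.11 (-0.25 to 0.03), RPL32 -0.14 (-0.29 to 0.01) and RPL19 -0.15 (-0.29 to -0.01). None of these 5 passed the edgeR test, with adjusted p from 0.0883 for RPL19 to 0.820 for RPLP0, and RPL19, RPL32 and RPL13A each had both treated libraries below both controls.

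RPS6, the protein that S6 kinase phosphorylates downstream of mTOR, had 2305 and 2194 CPM in vehicle and 2103 and 1935 CPM in gemcitabine. Its libraries did not overlap, and the fall by 0.16 on the log2 scale did not pass the edgeR test (adjusted p = 0.0891). RPS27A, made as a fusion with ubiquitin, was at -0.01 (95% interval -0.15 to 0.13). RPS4X, encoded on the X chromosome, was at -0.10 (-0.25 to 0.05), and RPL41, the shortest protein of the family, at -0.01 (-0.15 to 0.13). None of these 3 passed the edgeR test (adjusted p 0.278 to 0.901).

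The size of the change ran with coding length. Across the 76 genes the log2 fold change and the coding length had a Spearman's rho of -0.35, a description over genes that share the libraries, and -0.06 over 14154 genes with a known coding length. Within the large subunit the rho was -0.45 (46 genes) and within the small subunit -0.23 (30 genes). The 38 genes with coding lengths of 75 to 456 bases had a median of -0.05 and 2 falls. The 38 with 468 to 1281 bases had a median of -0.12 and 7 falls, including RPL3, RPL4 and RPL5, which with RPLP0 have the 4 longest coding sequences. Of all genes tested 20.0% fell. GC content of the coding sequence showed no such slope (rho = 0.09), and the part of length, fragment size or RNA quality in the falls was not tested.

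**Figure D4:**
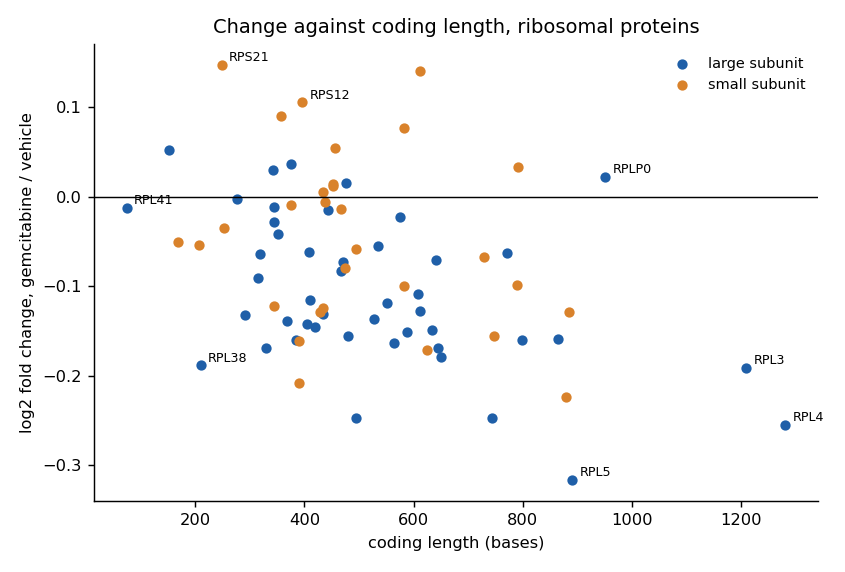
Log2 fold change (gemcitabine over vehicle, edgeR) of the 76 ribosomal protein mRNAs against coding length in bases, with large-subunit genes in blue and small-subunit genes in orange. RPL3, RPL4 and RPL5 lie low at the long end, and RPS21 and RPS12 high at shorter lengths.

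Genes that fell were found with and without an annotated TOP tract. Of the 46 genes with the tract at a RefSeq start, 3 fell (RPL12, RPS24 and RPL38, shown above), 33 were below 0 and the median was -0.06. Of the 16 with windows but no tract at the annotated base, 3 fell (RPL4, RPL3 and RPL10A), 16 were below 0 and the median was -0.12. The falls made up 6.52% of the genes with the tract and 18.8% of those without, beside 20.0% of all genes tested. The other 3 genes that fell, RPL5, RPL7 and RPS2, are not in these groups. No test was run between the groups.

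The DNaseI peak lists showed which of these genes had a called peak of open chromatin near the start. A gene without a listed peak was not shown to be closed. For the 76 genes with fragments, 39 had a peak within 1 kb of the transcription start in the vehicle library (51.3%, beside 24.4% of 14154 genes tested) and 34 in the gemcitabine library (44.7%, beside 28.2%). The lists held 9606 vehicle and 10695 gemcitabine peaks. In the gemcitabine library the share was thus lower than in vehicle for the family and higher over all genes. Peaks were present in both libraries for 26 genes, in vehicle alone for 13, in gemcitabine alone for 8 and in neither for 29. Over all 14154 genes tested the same counts were 2583, 868, 1413 and 9290. With 1 library per condition there is no replicate check, and at a score of at least 100 13 genes (17.1%) had a peak in vehicle and 14 (18.4%) in gemcitabine, against 7.16% and 8.72% of all genes.

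Of the 9 genes that fell, RPL5, RPL12 and RPL7 had a peak at the start in both libraries, RPL4, RPL3 and RPL10A in gemcitabine alone, RPS24 in vehicle alone, and RPS2 and RPL38 in neither. At RPL5 the vehicle peak ran from 93297177 to 93297820 (score 59.07) and the gemcitabine peak from 93297218 to 93298148 (score 66.0) on chromosome 1 of hg19. At RPL12 the vehicle peak ran from 130213531 to 130214792 (score 73.99) and the gemcitabine peak from 130213352 to 130215221 (score 77.4) on chromosome 9. RPL11 and RPS6 had a peak in vehicle alone, with scores of 62.66 and 51.23, near the lowest score of 50 in either list. The highest mRNA of the family, RPS3, had no peak in either library at this depth.

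The other genes of translation were read from 4 lists. Of 20 genes outside the symbol rule whose mRNAs carry a TOP tract, 8 fell (40%) and 0 rose, beside 20.0% and 18.5% of all genes tested. At an unadjusted p under 0.05 the counts were 11 and 0, beside 24.1% and 23.1% of all genes. Their median was -0.15 on the log2 scale. The largest changes were in HNRNPA1, a splicing factor (-0.53, edgeR adjusted p = 3.36e-05), PABPC1, the cytoplasmic poly(A)-binding protein (-0.47, adjusted p = 0.000199), EIF4B, which aids the helicase of the initiation complex (-0.41, adjusted p = 0.00205), and EIF3E, a subunit of initiation factor eIF3 (-0.36, adjusted p = 0.000592). EIF4B lost the call without vehicle library 1 (adjusted p = 0.0809) and without vehicle library 2 (adjusted p = 0.0631), and its adjusted p ran from 4.51e-18 to 0.215 over the alternatives. FAU and RACK1 of this list also encode ribosome components that the symbol rule leaves out, and they were picked out after their values were seen. FAU had a log2 fold change of 0.05, and RACK1, a scaffold on the small subunit, fell by 0.22 on the log2 scale (edgeR adjusted p = 0.0168). As in the family, none of the 20 met the study's fold criteria.

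**Figure D5:**
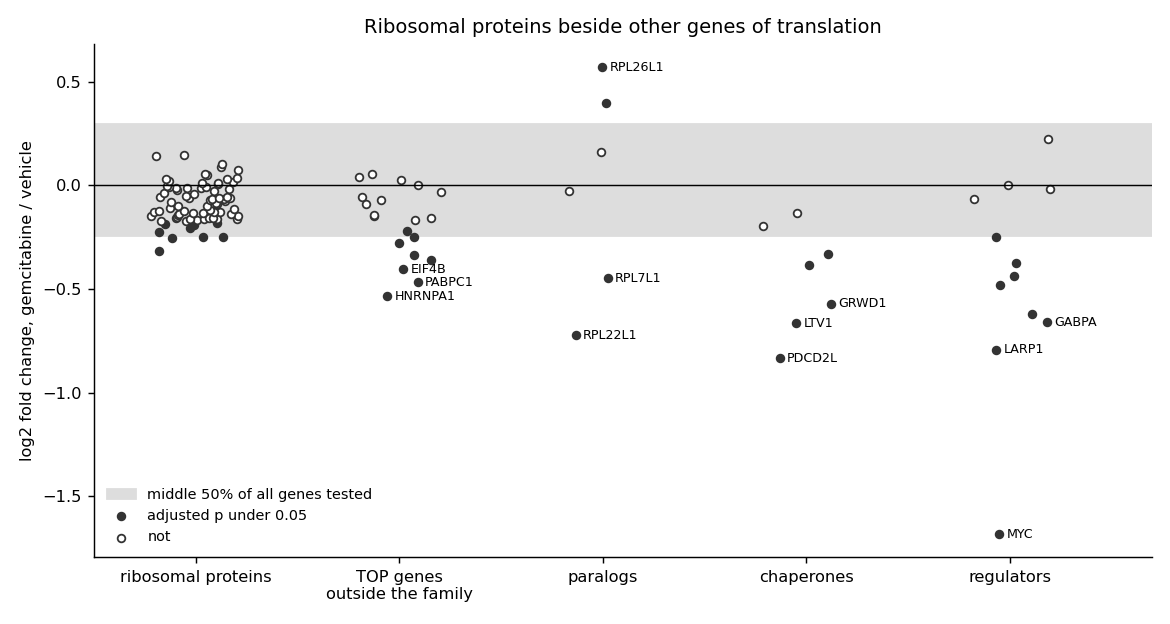
Log2 fold change (gemcitabine over vehicle, edgeR) of the 76 ribosomal proteins and of 4 lists of other translation genes; filled points have an adjusted p under 0.05 and the grey band holds the middle 50% of all genes tested. The ribosomal proteins stay close to 0, while MYC, LARP1, PDCD2L and RPL22L1 lie far below; RPL3L and RPL10L, with 1 to 6 fragments per library, are left out.

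Of 8 paralogs, gene copies that encode variants of a ribosomal protein, 2 fell and 2 rose (25% each, beside 20.0% and 18.5% of all genes tested). RPL22L1 had 546 and 624 fragments in vehicle and 326 and 329 in gemcitabine. Its log2 fold change was -0.72 (SE 0.09, edgeR adjusted p = 2.68e-05), and it was the 1 paralog past the study's full criteria. Its parent RPL22 had 2749 and 2719 fragments in vehicle and 2199 and 2324 in gemcitabine, a log2 fold change of -0.16 that did not pass (edgeR adjusted p = 0.0809).

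RPL7L1, a nucleolar assembly protein related to RPL7, had 2070 and 2193 fragments in vehicle and 1415 and 1475 in gemcitabine (log2 fold change -0.45, edgeR adjusted p = 0.00012). RPS27L had 1802 and 1969 fragments in vehicle and 2464 and 2125 in gemcitabine, a rise by a log2 fold change of 0.40 (edgeR adjusted p = 0.000724). RPL26L1 had 411 and 412 fragments in vehicle and 630 and 500 in gemcitabine (log2 fold change 0.57, SE 0.10, edgeR adjusted p = 0.000598). The gemcitabine libraries were apart from both controls in each of these genes, and RPS27L lost the call without vehicle library 1 (adjusted p = 0.057, with a range of 1.59e-13 to 0.160 over the alternatives). For RPL26L1 the scale mattered, since its FPKM went from 54.8 and 56.5 to 117 and 95.2, a log2 difference of 0.91 on log2(FPKM + 1).

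RPL39L was at 0.16 (edgeR adjusted p = 0.131; 0.27 with library totals, adjusted p = 0.0167, the lowest of the alternatives, whose highest was 0.378) and RPL36AL at -0.02 (adjusted p = 0.838). RPL3L and RPL10L, the paralogs of muscle and testis, had 1 to 6 fragments per library, and no fold is given.

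Dedicated chaperones hold single ribosomal proteins from synthesis to assembly. Of 7, 5 fell (71.4%) and 0 rose, beside 20.0% and 18.5% of all genes tested. At an unadjusted p under 0.05 the counts were also 5 and 0, and the median was -0.38. PDCD2L, a chaperone relative of PDCD2, had 169 and 163 fragments in vehicle and 83.2 and 89.0 in gemcitabine (log2 fold change -0.83, SE 0.16, edgeR adjusted p = 0.000731). LTV1, which accompanies the precursor of the small subunit, was at -0.67 (adjusted p = 1.45e-05), GRWD1, the chaperone of RPL3, at -0.57 (adjusted p = 2.27e-05) and PDCD2, the chaperone of RPS2, at -0.38 (adjusted p = 0.000698). Whether the mRNAs of the proteins held by these chaperones changed with them was not compared over the list, and a link between chaperone and protein was not tested.

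Among 12 regulators, 8 fell (66.7%) and 0 rose, beside 20.0% and 18.5% of all genes tested. At an unadjusted p under 0.05 the counts were 8 and 1, and the median was -0.41. MYC, the transcription factor that drives ribosome production, had 10326 and 9836 fragments in vehicle and 2775 and 3034 in gemcitabine. Its log2 fold change was -1.68 (SE 0.08, edgeR adjusted p = 5.88e-09), 0.312 of the vehicle level. Within a library, the family had 58.2 and 61.0 fragments per MYC fragment in vehicle and 194 and 165 in gemcitabine. LARP1, the protein that binds TOP tracts, had 6355 and 6551 fragments in vehicle and 3343 and 3537 in gemcitabine (log2 fold change -0.79, edgeR adjusted p = 8.67e-07). GABPA, the ETS factor of many ribosomal protein promoters, was at -0.66 (adjusted p = 6.79e-05), and EIF4EBP1, the inhibitor of the cap-binding protein eIF4E, at -0.62 (adjusted p = 3.39e-05). All 4 met the study's full criteria. Over the 4 lists together 23 genes fell and 2 rose with edgeR, where 20.0% and 18.5% of all genes tested did. With limma on log2(FPKM + 1) 2 fell and 0 rose.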

How the data were processed

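RNA-seq of PANC1 cells (2 vehicle and 2 gemcitabine libraries) and DNaseI-seq (1 and 1) were read from the deposited tables. Single-end reads had been placed on hg19 by the authors (TopHat2 2.0.8) and assigned to protein-coding Gencode genes (Cuffdiff 2.0.2). The deposited estimated counts are fragments assigned per gene (89.5% of values are whole within 0.001). The deposited FPKM are Cuffdiff's, scaled for transcript length and library by the authors. The authors called DNaseI peaks with MACS at a p-value of 1e-05; the deposited score, at least 50, serves only to rank peaks.

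Gene names came from a table matched by Ensembl ID (19619 of 20461 genes). Estimated counts were rounded. All 14854 genes whose fragments summed to 10 or more entered the test of edgeR 4.0.16 in R 4.3.3 (quasi-likelihood, TMM, no covariate), Benjamini-Hochberg adjusted over all of them; Cuffdiff was not run. The SE is the size of the log2 fold change divided by the root of F. The study's criteria were an adjusted p under 0.05, a fold change over 1.5, a mean of 0.1 FPKM in 1 condition and a difference of 1 FPKM. The test was checked on simulated counts. Copies were sought with minimap2 2.31, and starts and coding lengths came from a Gencode annotation lifted to hg19, later than the authors' own.

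The alternatives were DESeq2 1.42.0, RLE factors, library totals, TMM factors without the family, other filters, limma 3.58.1 on log2(FPKM + 1) and log2(FPKM + 0.1), each library left out, and other peak rules. Fold changes on FPKM are on the log2(FPKM + pseudocount) scale, which understates low genes. The genes and lists were chosen with earlier results of these data known. Named genes were the 6 highest and 6 lowest levels, the falls past the threshold, genes that act with MDM2, the stalk, reference genes, RPS6, RPS27A, RPS4X and RPL41, every paralog, and up to 4 genes of each other list by size of change; others are marked, and a few genes are not reported here. Libraries of a condition differed by more than sampling noise (chi-square per degree of freedom 2.27 for vehicle and 5.69 for gemcitabine), and none was counted as a duplicate.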

Additional observations from a re-analysis of the deposited data

How the results depend on the processing

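No paired analysis was possible because the expression table numbers its libraries by an index that the labels do not explain. The 9 falls became 1 with library totals, 4 with no filter, and 0 with limma on log2(FPKM + 1), on log2(FPKM + 0.1) and on log2(FPKM + 1) filtered at a mean of 0.1 FPKM; leaving out 1 library gave 0 to 37. Rises became 5 with library totals and 0 to 6 with 1 library left out. RLE factors, TMM factors without the family, DESeq2 and edgeR's own filter gave 8, 9, 11 and 8 falls and no rise. The median log2 fold change of the family moved to 0.024 with library totals and 0.055 in all 3 limma fits. No gene of the family met the study's full criteria under any of the 13 alternatives. Over the 4 lists, limma gave 2, 0 and 4 falls and 0, 0 and 1 rises in the same order of settings, library totals 5 rises, and leaving out 1 library 1 to 3 rises. The family's share of fragments was 3.40% in vehicle and 3.43% in gemcitabine from genes with whole values only, and 4.06% in vehicle without the 10 largest other genes. Peaks scoring at least 100 left 13 vehicle and 14 gemcitabine genes; distances of 5 kb, overlap with the start and, added after the data were seen, any annotated start kept the counts within 1.5 times. For 51 named genes, 0 of 657 values reversed a called direction, 106 lost the threshold and 14 passed it. Where an alternative changed a call, the cause was not tested, except that fewer libraries or genes were fitted. The smallest fall that passed was RPL10A (-0.18, SE 0.07), and smaller changes were not detectable with 2 libraries per condition.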

Other observations

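The balance between a paralog and its parent gene can be read within a library, free of scaling. Per 100 fragments of RPL22 there were 19.9 and 22.9 fragments of RPL22L1 in the vehicle libraries and 14.8 and 14.2 in the gemcitabine libraries. Per 100 fragments of RPL26 there were 5.39 and 5.38 fragments of RPL26L1 in vehicle and 9.40 and 8.06 in gemcitabine. Per 100 fragments of RPS27 there were 49.5 and 57.6 fragments of RPS27L in vehicle and 71.2 and 72.9 in gemcitabine. In each of the 3 pairs the conditions did not overlap. These ratios are per fragment and not per length, RPL22, RPL26 and RPS27 have 2, 3 and 11 copies elsewhere in hg19, and 2 libraries per condition allow no exact permutation p that could pass 0.05. The pairs were chosen after the values of the paralogs were seen.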
